A study of Homo sapiens with 8 samples.

Results

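Regions described here are the stretches of open chromatin that were listed in HCT8 cells after incubation with membrane vesicles (MVs) from Vibrio cholerae and in neither of the other treatments. HCT8 is an established human ileocecal adenocarcinoma line. Cells received MVs of V. cholerae strain C6706 (O1 El Tor) for 5 h, MVs of the Escherichia coli K-12 strain MC1061 for 5 h, or buffer alone (mock), and each treatment gave 1 FAIRE library and 1 library of chromatin precipitated with an antibody to H3K4me3. No treatment had a replicate library, so no test between treatments was possible. Intervals of shares and of single ratios cover counting error only. Those of medians cover the spread over regions, which are not replicates of a treatment. No transgene or genetic change of the cells separated the treatments, and a single tumour line limits what they stand for.

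FAIRE (formaldehyde-assisted isolation of regulatory elements) recovers DNA that is not held by nucleosomes, which in human cells marks promoters, enhancers and insulators. H3K4me3 is a histone mark of active promoters. AP-1, the dimer of FOS and JUN family proteins, binds many distal enhancers of epithelial cells and is a known target of signalling from bacterial products, as are the NF-kB factors.

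Overlapping peaks of the 3 FAIRE libraries (by 1 bp or more) were merged to give 167170 regions, and 33322 of them (19.9%) held peaks of the V. cholerae MV library only. They are called C6706-only regions below. Each held exactly 1 peak, and together they contained 41.9% of the 79591 peaks of that library, 26.9% of its tags in peaks and 18.5 Mb of sequence. Regions of the E. coli MV library only numbered 46545 (MC1061-only), those of the mock library only numbered 33560 (mock-only), and 14392 regions held peaks of all 3 libraries. The presence and absence of a listed peak chose the regions, so their strength is given as a description. The number of C6706-only regions was thus close to the number that mock cells alone gave.

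The FAIRE libraries held 12077180 tags with V. cholerae MVs, 7888670 with E. coli MVs and 14474665 in mock cells, and 13.9%, 37.3% and 7.12% of those tags lay in listed peaks, in the same order. The peak lists therefore differed in depth and in signal over background before any treatment was compared. For H3K4me3 the totals were 13011839 tags with V. cholerae MVs, 10528314 with E. coli MVs and 3463875 in mock cells. Of 10 markers of intestinal epithelium (among them EPCAM, KRT8 and VIL1), 8 carried an H3K4me3 peak at a start site with V. cholerae MVs, 9 with E. coli MVs and 8 in mock cells, while of 5 blood markers 1 did so in each treatment and of 3 endothelial markers none did. Of 4 fibroblast and muscle markers 2 did so with V. cholerae MVs, 2 with E. coli MVs and 1 in mock cells (ACTA2 in each treatment and COL1A1 weakly with both MVs). RBFOX3 of 3 neuron markers had a weak peak with both MVs, and APOA2 of 2 liver markers had one with V. cholerae MVs.

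The first and the third region by strength, both centred in introns, and the strongest region at a start site had the sequences below. They are shown because they are among the most intense examples of chromatin listed as open with V. cholerae MVs only. Each is the central 300 bp on the plus strand of GRCh37 (hg19), with capitals for letters that matched 1 of the 11 motifs searched.
STPG1 and GRHL3 intron, chr1:24690264-24690563: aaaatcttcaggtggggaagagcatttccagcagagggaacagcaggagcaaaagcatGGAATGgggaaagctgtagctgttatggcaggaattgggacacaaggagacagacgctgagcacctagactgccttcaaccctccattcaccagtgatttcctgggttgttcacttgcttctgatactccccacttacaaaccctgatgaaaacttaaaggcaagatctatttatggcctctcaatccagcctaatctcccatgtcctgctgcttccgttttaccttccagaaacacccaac
RARRES1 intron near MFSD1, chr3:158441155-158441454: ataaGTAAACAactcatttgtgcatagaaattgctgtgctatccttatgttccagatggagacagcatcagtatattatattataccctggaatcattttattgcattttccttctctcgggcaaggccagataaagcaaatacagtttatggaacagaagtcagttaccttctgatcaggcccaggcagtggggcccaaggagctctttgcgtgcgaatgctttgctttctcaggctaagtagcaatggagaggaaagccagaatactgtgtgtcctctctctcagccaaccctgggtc
BCAR3 start site, chr1:94080633-94080932: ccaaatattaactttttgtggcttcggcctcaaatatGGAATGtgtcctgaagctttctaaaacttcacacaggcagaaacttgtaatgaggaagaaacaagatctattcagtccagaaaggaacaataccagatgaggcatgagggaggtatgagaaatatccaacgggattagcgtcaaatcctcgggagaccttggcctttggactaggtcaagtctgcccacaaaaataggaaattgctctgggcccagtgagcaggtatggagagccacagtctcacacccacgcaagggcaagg
The capitals mark the TEAD letters (GGAATG) in the STPG1 and BCAR3 sequences and the FOXA letters (TGTTTAC, here on the minus strand) in the MFSD1 sequence. None of these 3 centres held the AP-1 letters TGANTCA. The nearest start of BCAR3 lay 243 bp beyond the edge of its region, so the printed BCAR3 bases do not hold the start itself.

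Other strong C6706-only regions held AP-1 letters in the central 300 bp, the stretch searched. The 6 sequences below are from strong regions of this kind, shown in 41 bp on the plus strand with the AP-1 letters in capitals.
RAC1 exon, chr7:6433052-6433092: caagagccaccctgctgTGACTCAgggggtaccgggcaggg
near SLC35D3, chr6:137290738-137290778: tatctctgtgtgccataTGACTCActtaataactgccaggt
LURAP1L intron, chr9:12784909-12784949: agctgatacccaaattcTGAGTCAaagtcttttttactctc
near ECRG4, chr2:106593823-106593863: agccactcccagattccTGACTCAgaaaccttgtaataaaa
near SDR42E1, chr16:82021529-82021569: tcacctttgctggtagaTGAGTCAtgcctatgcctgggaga
ATG16L1 intron, chr2:234156618-234156658: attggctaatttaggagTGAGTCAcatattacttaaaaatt
Regions at DNAJC5B (43.9 FAIRE tags, scaled to a library of 10000000 tags), ZNF703 (41.4) and ZDHHC3 (38.1) also held the letters and are not shown. The 6 regions had 45.5, 42.2, 40.6, 39.7, 38.9 and 37.3 tags on the same scale, in the order printed. The letters lay -30, 19, -144, 59, 52 and 78 bp from the centres of the RAC1, SLC35D3, LURAP1L, ECRG4, SDR42E1 and ATG16L1 regions. The SLC35D3, ECRG4 and SDR42E1 regions were 46703, 85488 and 23179 bp from a start of the named gene, which is only a landmark. RAC1 encodes a small GTPase of the actin cytoskeleton and ATG16L1 a protein of autophagy that acts in the handling of intracellular bacteria.

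C6706-only regions were weak and narrow. Their median level was 9.94 normalized tags, on that scale (lowest 5.80, highest 72.9), which corresponds to 12 tags in the library, and 74.9% held 14 tags or fewer. Their median enrichment was 5.26-fold over input. A width of exactly 500 bp, the shortest the peak caller gives, was found in 26330 regions (79.0%). Mock-only regions were alike, with a median of 8.98 normalized tags in the mock library and a median width of 500 bp. Regions of all 3 libraries had a median of 20.7 normalized tags in the V. cholerae MV library and a median width of 1603 bp.

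The stronger a peak of the V. cholerae MV library was, the less often it stood alone. Of peaks with 10 tags or fewer 60.5% were in C6706-only regions, of peaks with 21 to 25 tags 22.7%, of peaks with 41 to 60 tags 1.65%, and none of the 853 peaks above 100 tags was. Peak calling thresholds fall within this range. Scaled to the depth of the E. coli MV library, 22217 of the C6706-only regions (66.7%) would hold fewer tags than the 9 that its header gives as the threshold, and 485 (1.46%) fewer than its weakest listed peak of 6 tags. Scaled to the depth of the mock library, 4203 (12.6%) would fall under its threshold of 12 tags and 1 under its weakest peak of 9.

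Most C6706-only regions lay close to a peak of another treatment without touching it. The median gap to the nearest peak of the E. coli MV or mock library was 2522 bp. For 9132 regions (27.4%) the gap was at most 1000 bp, and for 66.6% it was at most 5000 bp. At the edge of the rule, 111 C6706-only regions ended within 10 bp of such a peak, with a median of 9.94 normalized tags, and 108 peaks of the V. cholerae MV library shared 10 bp or less with one and so were not counted, with the same median.

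Few C6706-only regions lay at promoters. Within 1000 bp of the start site of a protein-coding gene lay 3082 of them (9.25%, 95% exact binomial interval 8.94 to 9.57%), against 19.2% of MC1061-only, 8.22% of mock-only and 41.8% of regions of all 3 libraries. Away from start sites, 45.03% of C6706-only regions were in introns, 40.4% between genes and 5.36% in exons. Their median GC content was 50.7% in the central 300 bp, against 57.0% in MC1061-only, 49.7% in mock-only and 58.0% in regions of all 3 libraries. The SP and KLF letters GGGCGG, which are common in CpG-rich promoters, stood in the central 300 bp of 8.32% of C6706-only regions, against 19.4% of MC1061-only, 7.09% of mock-only and 29.98% of regions of all 3 libraries. By place and base composition, C6706-only regions thus stood nearer to mock-only than to MC1061-only regions. GC content moves with each of these shares, and its part in the differences was not tested.

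H3K4me3 was rare at C6706-only regions in every treatment. An H3K4me3 peak of the V. cholerae MV library overlapped 1458 of them (4.38%, interval 4.16 to 4.60%), one of the E. coli MV library 1580 (4.74%, 4.52 to 4.98%) and one of the mock library 947 (2.84%, 2.67 to 3.03%). The share for V. cholerae MVs thus did not exceed that for E. coli MVs. The mock H3K4me3 library had fewer tags and fewer listed peaks than the others, and its lower share cannot be told apart from that depth. Of mock-only regions, 1.95% overlapped an H3K4me3 peak with V. cholerae MVs, 1.97% with E. coli MVs and 1.12% in mock cells. Of the regions of all 3 FAIRE libraries, 44.8%, 42.8% and 35.0% did.

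**Figure D1:**
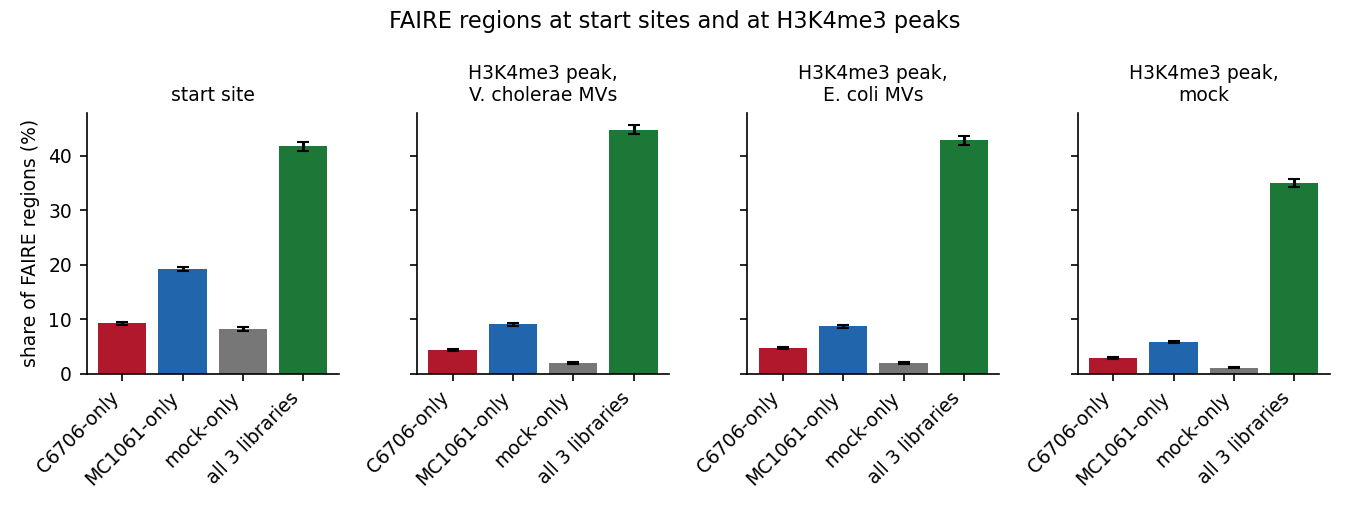
Share of FAIRE regions (percent, y axes) within 1000 bp of a protein-coding start site and overlapping an H3K4me3 peak of each treatment, for C6706-only, MC1061-only and mock-only regions and regions of all 3 libraries, with 95% exact binomial intervals of counting error. C6706-only regions reach 9.25% at start sites and at most 4.74% at H3K4me3 peaks, against 41.8% and up to 44.8% in regions of all 3 libraries.

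In 31262 C6706-only regions (93.8%) no treatment had an H3K4me3 peak, and in 669 (2.01%) all 3 had one. An H3K4me3 peak of V. cholerae MVs alone was found at 321 regions (0.963%), one of E. coli MVs alone at 366 (1.098%) and one of mock cells alone at 117 (0.351%). A further 426 had peaks with both MVs and not in mock cells. Where all 3 treatments had a peak, 33.9% of the regions were at a start site, against 15.6% where V. cholerae MVs alone gave one. The H3K4me3 peaks of V. cholerae MVs alone were weak, with a median of 13.1 normalized tags, against 78.4 where all 3 treatments had one. The chromatin listed as open with V. cholerae MVs only was therefore mostly unmarked, and where it was marked, V. cholerae MVs alone seldom gave the mark.

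The level of H3K4me3 could be compared with mock at 711 C6706-only regions with a peak in both. It is the sum of the listed H3K4me3 peaks that touch a region, in normalized tags, and those peaks may reach beyond the region. The median log2 ratio of V. cholerae MVs over mock was 0.15 (0.05 to 0.23), against 0.61 over all 15700 FAIRE regions with such peaks. The counting interval of the ratio lay above 0 at 248 regions (34.9%, against 65.3% of all FAIRE regions) and below 0 at 111 (15.6%, against 4.17%). The sign of this median depended on the scaling: it was -0.39 when levels were scaled to the tags in all H3K4me3 peaks, a choice that shifted the ratios by -0.54, and -0.30 per 1000 bp of peak. For E. coli MVs over mock the median was 0.27 (0.23 to 0.31) at 788 regions, against 0.51 over all FAIRE regions, with intervals above 0 at 285 (36.2%, against 62.6%) and below 0 at 55 (6.98%, against 1.63%). For V. cholerae MVs over E. coli MVs it was -0.04 (-0.06 to -0.004) at 1095 regions, against 0.12 over all FAIRE regions, with intervals above 0 at 158 (14.4%, against 31.7%) and below 0 at 233 (21.3%, against 10.9%). In normalized tags, each of these 3 medians was lower than the median over all FAIRE regions.

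The gap was widest at regions of 30 to 120 normalized H3K4me3 tags. Where the mean of both libraries was 60 to 120 normalized tags, the median log2 ratio of V. cholerae MVs over mock was -0.24 (-0.40 to -0.10) at 105 C6706-only regions and 0.97 (0.91 to 1.02) at 1546 other FAIRE regions. Above 300 normalized tags it was 0.45 (0.40 to 0.53) at 223 C6706-only regions and 0.54 (0.52 to 0.55) at 7350 others. Mock-only regions were alike, with -0.08 (-0.35 to 0.65) at 34 regions of 60 to 120 tags and 0.40 (0.33 to 0.47) at 138 regions above 300. MC1061-only regions were not, with 0.94 (0.81 to 1.12) at 362 regions of 60 to 120 tags. The low ratio was thus also seen at mock-only regions, though on few of them, and not at MC1061-only regions.

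H3K4me3 was found more often at the stronger C6706-only regions, although 1060 of the 1458 marked with V. cholerae MVs held 20 tags or fewer. The share with an H3K4me3 peak of V. cholerae MVs was 1.24% at 10 tags or fewer, 3.53% at 13 to 14 tags, 9.14% at 17 to 20 tags, 15.5% at 21 to 25 tags, 32.8% at 31 to 40 tags and 37.3% (26.4 to 49.3%, 28 of 75) above 40 tags. MC1061-only regions, counted in their own tags, showed the same order, with 1.29% at 10 tags or fewer, 25.4% at 31 to 40 tags and 59.8% above 40 tags. Mock-only regions had lower shares, with 1.20% at 10 tags or fewer, 4.55% at 21 to 25 tags, 3.36% (1.098 to 7.66%) at 31 to 40 tags and 10.3% (2.19 to 27.4%, 3 of 29) above 40 tags. Among the strongest 1% of C6706-only regions (334 regions of at least 31 tags), 34.7% overlapped an H3K4me3 peak with V. cholerae MVs, 35.9% with E. coli MVs and 24.3% in mock cells. Among the strongest 1% of mock-only regions (336) the shares were 3.87%, 4.17% and 2.08%. Among the strongest 1% of MC1061-only regions (466) they were 85.4%, 83.5% and 71.9%, and 74.2% of these regions were at a protein-coding start site. Strong C6706-only regions therefore carried the mark more often than strong mock-only regions and less often than strong MC1061-only regions. This held in each of the 3 treatments, mock cells included. Only 15.6% of the strongest 1% of C6706-only regions were at a protein-coding start site.

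AP-1 letters showed the other gradient with strength. TGANTCA, read on both strands in the central 300 bp, was present in 3540 C6706-only regions (10.6%, 10.3 to 10.96%), against 8.55% of MC1061-only, 9.06% of mock-only, 12.01% of regions shared by both MVs and 9.16% of regions of all 3 libraries. It was present in 8.99% of C6706-only regions of 10 tags or fewer, 12.5% at 17 to 20 tags, 19.9% (15.5 to 24.8%) at 31 to 40 tags and 22.7% (13.8 to 33.8%) above 40 tags. Mock-only regions stayed between 7.76% and 10.6%. MC1061-only regions stayed between 7.83% and 10.2% up to 30 tags and had 6.52% at 31 to 40 and 6.13% above 40 tags. Of the strongest 1% of C6706-only regions 21.0% (16.7 to 25.7%) held the letters, against 10.5% of the other 99%. The same split gave 4.94% and 8.59% in MC1061-only and 9.23% and 9.06% in mock-only regions.

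GC content differed between these sets, and the strongest MC1061-only regions had a median of 65.7%. Among regions of 45 to 55% GC, the AP-1 share in C6706-only regions was 9.81% at 10 tags or fewer and 18.8% (13.7 to 24.9%) at 31 to 40 tags. In MC1061-only regions of that GC content it was 10.2% at 10 tags or fewer, 18.9% (15.4 to 22.8%) at 26 to 30 tags and 10.0% (7.27 to 13.3%) at 31 to 40 tags, so that up to 30 tags these regions showed a gradient of their own. In mock-only regions it was 8.81% and 14.5% (7.45 to 24.4%) at the ends of the same range. Within this GC range an increase with tags was thus also present in MC1061-only regions up to 30 tags, and above 30 tags the small number of mock-only regions (76 at 31 to 40 tags) left a wide interval.

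**Figure D2:**
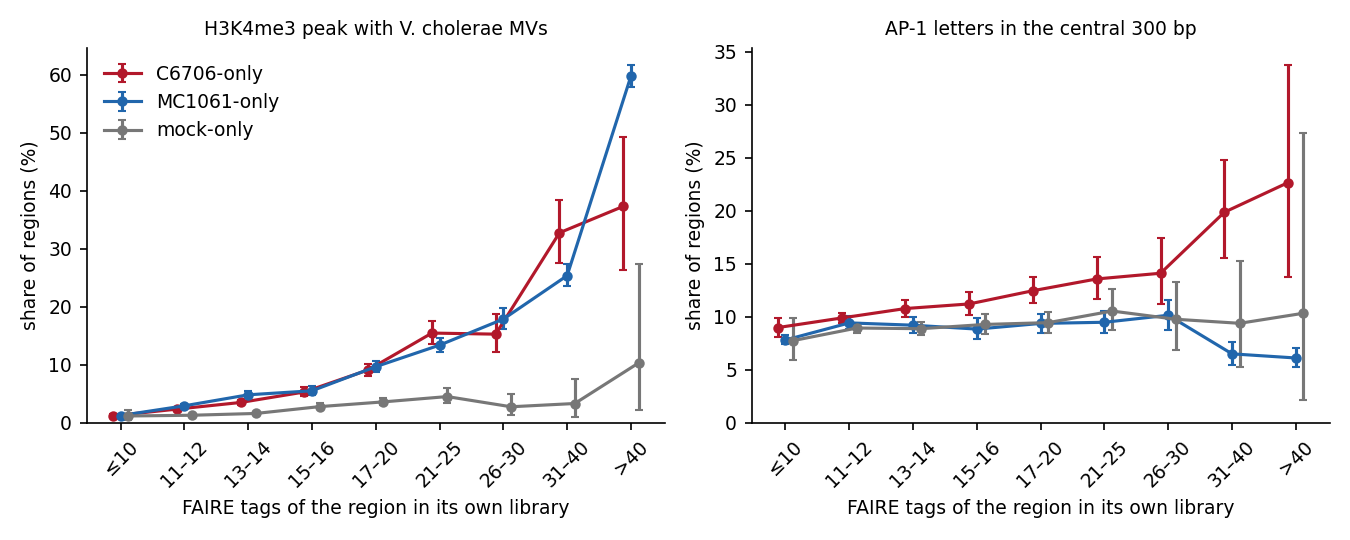
Share of regions (percent, y axes) that overlapped an H3K4me3 peak of V. cholerae MVs (left) and that held AP-1 letters in the central 300 bp (right), by the number of FAIRE tags of the region in its own library (x axes), for C6706-only (red), MC1061-only (blue) and mock-only regions (grey), with 95% exact binomial intervals. The AP-1 share of C6706-only regions is 8.99% at 10 tags or fewer and 22.7% above 40 tags, while mock-only regions stay between 7.76% and 10.6%.

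The AP-1 letters also gathered at the centre of the stronger C6706-only regions. In the 2132 regions of over 20 tags, 6.10% (5.12 to 7.20%) held them in the 100 bp before the centre and 5.77% (4.82 to 6.84%) in the 100 bp after it. Beyond 200 bp from the centre the share was at most 4.22% (3.41 to 5.16%), in the bin 700 to 800 bp before it. In the bins 800 to 900 bp before and after the centre the shares were 3.61% (2.86 to 4.49%) and 3.05% (2.36 to 3.87%). In the 31190 regions of 20 tags or fewer the central shares were 3.71% and 3.73%, against 3.23% and 3.22% in those outer bins. Mock-only regions of over 20 tags had 3.76% and 3.31% at the centre, against 2.74% and 3.38% outside. MC1061-only regions of over 20 tags had 2.88% and 2.81% at the centre, against 2.52% and 2.07% outside, a smaller difference in the same direction. Among C6706-only regions over 1000 bp from any FAIRE peak of another treatment, 16.5% (14.6 to 18.5%) of those above 20 tags held the letters. Of the weaker ones 10.8% did. A match of letters is a description of sequence and not evidence of binding.

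**Figure D3:**
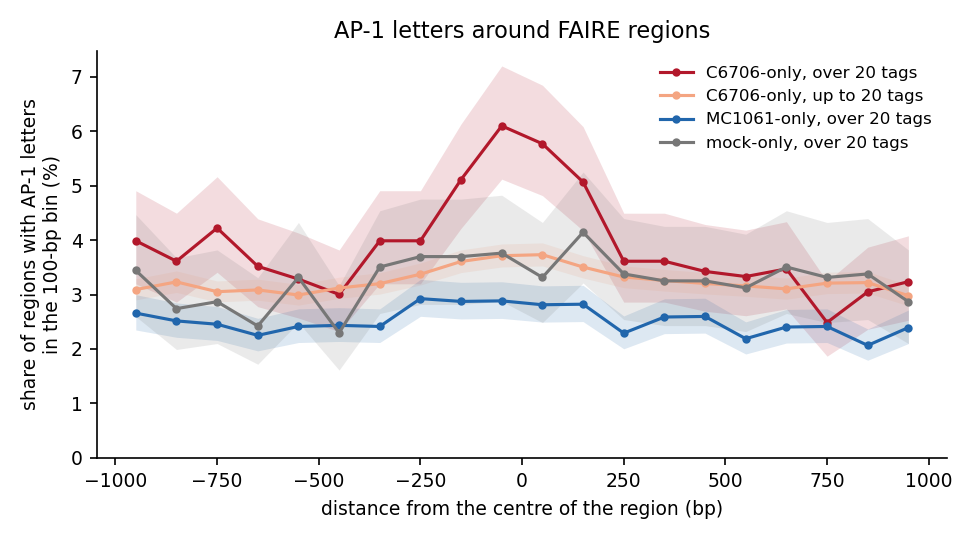
Share of regions with AP-1 letters in bins of 100 bp (percent, y axis) by distance from the centre of the region (bp, x axis), for C6706-only regions of over 20 tags (red) and of up to 20 tags (orange), MC1061-only (blue) and mock-only regions of over 20 tags (grey), with bands of 95% exact binomial intervals. The red line is highest in the central bins, at 6.10% and 5.77%.

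Of the other motifs, the NF-kB letters were present in 0.462% of C6706-only regions, against 0.443% of MC1061-only and 0.393% of mock-only regions. The HNF4 letters CAAAGTCCA were present in 0.564%, against 0.565% and 0.453%, and the CTCF letters in 2.19%, against 3.13% and 1.62%. FOXA letters were present in 3.47% of C6706-only regions, against 2.30% and 3.03%, and in 5.39% (3.22 to 8.38%) of the strongest 1%. The TCF/LEF letters CTTTGAT were present in 3.46%, against 2.60% and 3.58%. In the strongest 1% of C6706-only regions, CTCF letters were present in 4.19% (2.31 to 6.93%), against 2.17% of the other 99%, and the HNF1 letters in 2 regions of 334, against 5 of 32988. For the other 8 motifs the interval in the strongest 1% included the share in the rest.

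The strongest C6706-only region was centred in overlapping introns of STPG1 and GRHL3 (chr1:24689311-24691517), with 72.9 normalized tags (88 tags, 4.34-fold over input). H3K4me3 there was 35.4 normalized tags with V. cholerae MVs, 65.5 with E. coli MVs and 17.3 in mock cells. A mock FAIRE peak lay 798 bp away and one of E. coli MVs 2754 bp away. Another C6706-only region stood near a start site of STPG1, with 37.3 normalized tags and an H3K4me3 peak in mock cells alone. STPG1 encodes a sperm-tail repeat protein and GRHL3 a transcription factor of epithelial barriers.

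The strongest 10 regions spanned 48.0 to 72.9 normalized tags and were 882 to 2206 bp wide. In 8 of them the enrichment over input was below 5-fold. After STPG1 came regions near OPTC, an extracellular matrix proteoglycan (68.7 normalized tags), in an intron of RARRES1, a retinoid-responsive gene, with the lysosomal transporter gene MFSD1 nearest (63.8, 8.19-fold), at BCAR3, an adaptor of integrin signalling (61.3), and near KCNK5, a background potassium channel (54.6). Regions near SRBD1 and SCG2 had 51.3 each, and those near RHOU, GPRIN2 and RPLP1 had 48.0 each. RHOU encodes a small GTPase induced by Wnt signalling and RPLP1 a protein of the ribosomal stalk. The distance to the named gene was 8241 bp at MFSD1 and 144845 bp at SRBD1, so for most of them the gene is only a landmark.

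H3K4me3 at these strong regions was faint. At the MFSD1 region it was 30 normalized tags with V. cholerae MVs and 53.2 with E. coli MVs, with no peak in mock cells. At the KCNK5 region it was 43.8 with V. cholerae MVs and 18.0 with E. coli MVs, again with none in mock cells. At the RHOU region it was 50.3 with E. coli MVs and 75.1 in mock cells, with no peak with V. cholerae MVs. At the SRBD1 and GPRIN2 regions no treatment had one. Of the 8 of these 10 regions with an H3K4me3 peak in any treatment, the level was higher than in mock cells at 5 and lower at 2 with V. cholerae MVs, and higher at 6 and lower at 2 with E. coli MVs, a missing peak counted as 0. The weakest listed H3K4me3 peak had 6.92 normalized tags with V. cholerae MVs, 7.60 with E. coli MVs and 11.5 in mock cells, and the part of this limit in those counts was not tested.

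Past the first 10, regions were looked up by their neighbours after their values were seen. A region inside a long annotated transcript of AHR (chr7:17245198-17246346) lay 73384 bp from a start of the gene. AHR encodes the aryl hydrocarbon receptor, which senses bacterial and dietary ligands. The region had 43.9 normalized tags at 9.74-fold over input and no H3K4me3 peak. The nearest FAIRE peak of another treatment was 28643 bp away. A region 7789 bp from BHLHE40, a transcriptional repressor, had 48.0 and one 20600 bp from KLF6, an early growth response factor, had 41.4. The KLF6 region carried H3K4me3 of 55.3 normalized tags with V. cholerae MVs and 69.3 with E. coli MVs.

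Among start sites, the strongest C6706-only region was at BCAR3 (chr1:94079897-94081669), with 61.3 normalized FAIRE tags and weak H3K4me3 of 16.1 normalized tags with V. cholerae MVs, 9.50 with E. coli MVs and 26.0 in mock cells. Next came STPG1 and GPATCH4, a nucleolar protein, with 37.3 each, POR, the electron donor of cytochrome P450 enzymes, with 35.6, and the unnamed gene ENSG00000289281 and KHSRP, a factor of mRNA decay, with 34.8 each. PTPRF, a receptor tyrosine phosphatase, SMCO4, the splicing regulator MBNL2 and the centrosomal protein CEP112 had 33.1 each. The CEP112 region was 500 bp wide and had the steepest enrichment of these, 11.55-fold. The nearest FAIRE peak of another treatment was 50573 bp away.

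At 4 of these 10 regions an H3K4me3 peak of every treatment overlapped the region. Peaks at the start site that did not touch the region were not counted here. At GPATCH4 it was 534.9 normalized tags with V. cholerae MVs, 554.7 with E. coli MVs and 479.2 in mock cells, and at MBNL2 594.8, 727.6 and 672.7 in the same order. For both, the start site was thus marked strongly in mock cells although FAIRE listed it with V. cholerae MVs only. At the POR region the mark was 30.7 with V. cholerae MVs and 14.2 with E. coli MVs, and mock cells had no peak there. The KHSRP and SMCO4 regions had no H3K4me3 peak in any treatment.

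In all, 2639 of 20090 protein-coding genes (13.1%) had a C6706-only region within 1000 bp of a start site. At 2350 of them another treatment also had a FAIRE peak near a start. The remaining 289 genes (10.95%) had a FAIRE peak at a start with V. cholerae MVs only, and 207 of those (71.6%) had no H3K4me3 peak in any treatment, while 56 (19.4%) had one in all 3. Over all protein-coding genes 60.1% had one in all 3. The strongest of the 289 included SPC25, a kinetochore subunit (33.1 normalized tags), RXFP4, the receptor of the gut hormone INSL5 (29.8), MAGOHB of the exon junction complex (27.3), EHF, an epithelial ETS factor (24), and MED28 of the Mediator complex (23.2). At MAGOHB the H3K4me3 level was 575.6 with V. cholerae MVs, 698.1 with E. coli MVs and 594.7 in mock cells, and at SPC25 303.6, 319.1 and 311.8.

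CXCL8, which encodes the neutrophil attractant interleukin 8, was 1 of the 289. Its C6706-only region (chr4:74606065-74606565) covered the start site with 19.9 normalized FAIRE tags (24 tags, 4.85-fold over input). The nearest FAIRE peak of mock cells was 8630 bp away and the nearest with E. coli MVs 61997 bp away. H3K4me3 at the start was lower with V. cholerae MVs, with 41.5 normalized tags, against 76.0 with E. coli MVs and 83.7 in mock cells. CCL20, a chemokine of the gut epithelium, had a weaker region at its start (11.6) and no FAIRE peak of the other treatments. At TLR3, the receptor of double-stranded RNA, the region had 12.4, and H3K4me3 around the start was 195.2 with V. cholerae MVs, 311.5 with E. coli MVs and 248.3 in mock cells. At IFIT1, an interferon-induced gene, it had 9.94, with H3K4me3 of 101.4, 133.9 and 155.9 in the same order. At CXCL8, TLR3 and IFIT1 the H3K4me3 level was lowest with V. cholerae MVs, the treatment with the FAIRE peak.

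The gene lists were read against all protein-coding genes, of which 13.1% had a C6706-only region at a start site and 40.7% at a start site or in the body. Mock-only regions, of nearly the same number, reached 12.1% and 40.1% of genes. MC1061-only regions, which were more numerous, reached 32.2% and 51.4%. Of 30 NF-kB and TNF targets, 8 had a C6706-only region at a start site, 9 an MC1061-only and 3 a mock-only region. Of 18 interferon response genes 6 had a C6706-only region there, 2 an MC1061-only and 5 a mock-only region. Of 23 genes of ion and fluid transport 7, 13 and 5 did, in the same order. Of 26 AP-1 and immediate early genes 2 had a C6706-only region at a start site, 4 an MC1061-only and 2 a mock-only region. The lists differed in gene length, which was not adjusted for: 5 of 26 AP-1 and immediate early genes (median length 5.73 kb) had a C6706-only region at a start or in the body, against 22 of 28 genes of cell adhesion and the actin cytoskeleton (64.9 kb) and 8 of 20 TGF-beta and SMAD genes (54.4 kb). MC1061-only regions reached 9, 21 and 10 genes of the same lists, and mock-only regions 4, 18 and 12.

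Among NF-kB and TNF targets the strongest regions were in an intron of TNIP1, an inhibitor of NF-kB signalling (20.7 normalized tags), at CXCL8 (19.9) and near the start of NFKBIZ, a nuclear IkB protein (16.6). The start sites of TNIP1 and NFKBIZ had FAIRE peaks in all 3 treatments, strongest with E. coli MVs. At TNIP1 the start held 119.98 normalized FAIRE tags with V. cholerae MVs, 422.1 with E. coli MVs and 31.8 in mock cells. Among AP-1 and immediate early genes the strongest were in an exon of KLF6 (17.4), in an intron of ATF3, a stress-induced factor (15.7), and near the start of KLF2 (12.4), while FOS and JUN had none in their bodies or at their starts. In the list for sensing of bacterial products, NOD1 and NOD2, the receptors of peptidoglycan fragments, had 14.9 and 10.8. TLR3, placed in that list although it is a receptor of double-stranded RNA, had 12.4.

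Among interferon response genes the strongest were in an intron of IRF2 and an exon of CIITA, the regulator of MHC class II (14.9 each), and at the start of IRF1 (14.1). Of 28 intestinal differentiation genes 11 had a C6706-only region at a start or in the body, 15 an MC1061-only and 14 a mock-only region. The strongest were near the starts of KLF5, a factor of the crypt epithelium (27.3), EHF (24) and ANPEP, an aminopeptidase of the brush border (23.2). KLF5 had H3K4me3 at its start of 2159 normalized tags with V. cholerae MVs, 2656 with E. coli MVs and 2676 in mock cells, and its FAIRE peaks summed to 95.2 with V. cholerae MVs and 220.6 with E. coli MVs, with none in mock cells.

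Of the 22 junction genes (tight and adherens), 16 held a C6706-only region at a start or in the body, 15 an MC1061-only and 11 a mock-only region. The strongest C6706-only regions were in introns of TJP1, the scaffold ZO-1 (23.2), CLDN2, a cation pore whose gene overlaps MORC4 there (21.5), and CLDN1 (17.4). The central 300 bp of the CLDN1 region held the AP-1 letters 3 times. Of 18 Wnt targets and crypt stem genes 11 had a C6706-only region, 15 an MC1061-only and 13 a mock-only region. The strongest C6706-only regions were in EPHB2, a receptor that positions crypt cells (31.5), and at ZNRF3 and RNF43, ligases that remove Frizzled receptors (21.5 and 19.9). Of the transport genes, 17 of 23 had a C6706-only region, 16 an MC1061-only and 18 a mock-only region. The strongest C6706-only regions were at the start of CLCN2, a chloride channel (29.0), and in ADCY3, an adenylate cyclase (24.8), and KCNQ1, a basolateral potassium channel (23.2). CFTR, the chloride channel that cholera toxin opens through cyclic AMP, held 2 weak regions in its body, of up to 11.6. Of 20 TGF-beta and SMAD genes 8 had a C6706-only region, 10 an MC1061-only and 12 a mock-only region. The strongest C6706-only regions had 15.7 in the body of TGFB1 at a start of HNRNPUL1, 14.1 in SMAD6 and 13.2 in TGFBR3.

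In cell adhesion and actin genes the strongest regions were in an intron of EZR, which links microvilli to actin (35.6, 5.80-fold), at a start of the myosin gene MYH9 (27.3) and in LAMA3, a laminin chain (17.4). The MYH9 region carried H3K4me3 of 136.0 normalized tags with V. cholerae MVs, 127.3 with E. coli MVs and 60.6 in mock cells and held the AP-1 letters.

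The genes that the study names were mostly open in every treatment. Of its 7 differentiation genes, 5 held a C6706-only region at a start or in the body (4 an MC1061-only and 4 a mock-only region). The 5 were TJP1 with 23.2, VDR and CDK6 with 21.5, KRT80 with 19 and CDKN1B with 9.11 normalized tags, and SKIL and CCND1 held none. These genes were chosen by the study on the same cells, so their count is not independent evidence. VDR, the vitamin D receptor, was the single one with such a region near a start site, at 11.6 normalized tags. Its region of 21.5 lay in an intron, 8044 bp from a start. FAIRE peaks at the VDR starts summed to 93.6 normalized tags with V. cholerae MVs, 324.6 with E. coli MVs and 34.5 in mock cells. The KRT80 region lay 4 bp from an E. coli MV peak and held AP-1 letters. The CDK6 region carried H3K4me3 of 80.7 with V. cholerae MVs, 132.0 with E. coli MVs and 66.4 in mock cells. At the CDKN1B region it was 2118.1, 2422 and 1622.5 in the same order. The VDR intron region had 37.7 with V. cholerae MVs, 18 with E. coli MVs and no H3K4me3 peak in mock cells. The TJP1 and KRT80 regions had no H3K4me3 peak in any treatment. Of other genes named there, MAP3K14 (15.7), ALDH1A3 (16.6) and SOCS2 (9.94) held one and JUN, LTB and RND3 held none.

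C6706-only regions were most numerous in long genes. TRAPPC9 held 45, AGAP1 43, KAZN 42, CAMTA1 41 and CACNA1C 38, which is 3.43 to 6.74 per 100 kb, against 1.53 over all protein-coding gene bodies. MC1061-only and mock-only regions were also dense there, with 52 and 37 in TRAPPC9 and 46 and 23 in AGAP1. Chained at gaps of up to 20000 bp, 11824 C6706-only regions (35.5%) stood alone, and the longest chains held 20 regions across BIN3, EGR3 and PEBP4, 18 across INPP5D, NEU2 and NGEF and 17 in MSI2, an RNA-binding protein of intestinal stem cells. No chromosome other than the autosomes and X held any, and X held 132 (0.396%).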

How the data were processed

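Peak lists of FAIRE-seq and H3K4me3 ChIP-seq (1 library per treatment and assay) of HCT8 cells were used. The series has 8 samples, of which 6 entered the analysis, and the 2 inputs did not. Per the submitters' processing notes, reads were aligned with Bowtie 1.1.2 and handled with SAMtools 1.3.1, and peaks were called with HOMER 4.7.2 on hg19. The study's methods name other tools for some steps. Per the file headers, peaks were called per library against input in windows of 500 bp, joined within 1000 bp, at least 4-fold over input and over the surrounding 10000 bp, with a Poisson p of at most 0.0001.

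The deposited normalized tag count is a signal scaled by the authors to a library of 10000000 tags. The deposited total tag counts are whole counts for FAIRE and mock ChIP and a scaled signal for the ChIP of both MVs. Control tags are a signal of the input library that the authors scaled to the same depth. The deposited fold is the ratio of tags to input, and the deposited p-value is the peak caller's. Neither was used to compare treatments.

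Peaks of the FAIRE lists sharing at least 1 bp were joined. Regions were placed by GENCODE release 44 lifted to GRCh37, the same assembly as hg19, with start sites within 1000 bp, and the sequence of the central 300 bp was searched on both strands for 11 motifs written only with A, C, G, T and N. Intervals are exact binomial (Clopper-Pearson), exact for a ratio of counts, or order statistics for medians, all at 95%. The binomial and ratio intervals cover counting error only, and tags are not independent molecules. Intervals of medians cover the spread over regions, and neighbouring regions may share an H3K4me3 peak. Joining, motif search and intervals were tested on simulated data. Python 3.11.15, pandas 2.3.3, numpy 2.4.6, scipy 1.17.1 and matplotlib 3.10.9 were used.

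The regions, gene lists and alternatives were chosen with earlier results of these data known. Genes were named by rule: the 10 strongest regions at start sites, the 10 strongest of all, up to 3 genes of each of 13 lists, the genes the study names (some are not reported here), and the 5 genes holding the most regions. Genes chosen after their values were seen are the genes named with the AP-1 sequences, AHR, BHLHE40, KLF6 (distal), CFTR, CCL20, IFIT1, and the genes open at a start with V. cholerae MVs only. All 239 list genes were matched, 1 under its newer symbol.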

Additional observations from a re-analysis of the deposited data

Results flagged for a closer look

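At 7 of the named C6706-only regions the H3K4me3 level lay on opposite sides of mock with the 2 MVs, which flagged them. The difference was not tested, since each treatment had 1 library. At all 7 the counting intervals of both ratios over mock included 0, and with levels scaled to the tags in all H3K4me3 peaks both MVs lay below mock at each of them. The log2 ratio of V. cholerae MVs over E. coli MVs was 1.21 at SDR42E1 (0.09 over mock with V. cholerae MVs and -1.12 with E. coli MVs) and 1.07 at NFKBIZ (0.51 and -0.56). It was -0.68 at RNF43 (-0.60 and 0.08), -0.63 at TNIP1 (-0.23 and 0.40), -0.29 at MBNL2 (-0.18 and 0.11) and -0.27 at ATF3 (-0.20 and 0.07). At RAC1 it was -0.0542 (-0.01 and 0.04).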

How the results depend on the processing

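No paired analysis was possible because there was 1 library for each treatment and assay. Of 63 values under alternatives, 23 stayed within the interval of the reported value or within 1.5 times the reported count, 35 moved and 5 changed sign. The median level and width moved only with the limit of 20 tags. At 8-fold over input the count of C6706-only regions was 5351, the start site share 7.76%, the H3K4me3 shares 2.13% (V. cholerae MVs), 2.37% (E. coli MVs) and 1.36% (mock), and the AP-1 share 9.81%. Counting regions under 50% covered by other peaks as C6706-only gave 10.3% at start sites, H3K4me3 shares of 5.19%, 5.39% and 3.26% in that order, and a median log2 ratio of H3K4me3 over mock of 0.26. Joining peaks up to 500 bp apart gave 8.06%, H3K4me3 shares of 4.003%, 4.47% and 2.58%, and a ratio of -0.0508. Start site windows of 500 and 5000 bp gave 6.24% and 27.0%, and start sites of all genes 14.4%. H3K4me3 peaks within 1000 bp gave 8.59%, 9.14% and 5.95%. Scaling to tags in all peaks gave a ratio of -0.39 and tags per 1000 bp of peak -0.30. AP-1 letters in the whole region gave 18.3%.

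Another pair of limits was chosen after seeing the data. Over 1000 bp from any FAIRE peak of another treatment, the start site share was 7.37%, the H3K4me3 shares 3.56%, 4.15% and 2.39%, the ratio -0.19 and the AP-1 share 11.1%. Over 20 tags, 2132 regions were left, with a median of 19.9 normalized tags, a width of 879.5 bp, 11.9% at start sites, H3K4me3 shares of 18.7%, 19.8% and 12.2%, a ratio of -0.0430 and an AP-1 share of 14.9%. The cause was not tested, apart from the windows, scalings and limits that set a value by construction. With 12 tags in a typical region, whether a region was missed in the other libraries or was closed there cannot be told apart.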
